A study of Homo sapiens and Mus musculus with 8 samples.

Results

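Macrophages of SKOV3 tumors were studied here as 5994 cell barcodes out of the 33428 in the deposited single-cell matrix, split over 4 libraries numbered 1 to 4. They were selected on measured values. A barcode was kept with at most 46340 unique molecular identifiers (UMIs, each standing for 1 captured RNA molecule) and no fewer than 32-fold below that limit, with 725 to 5792 genes and under 15% mitochondrial UMIs, which left 26658. It was taken as a macrophage with at least 20 UMIs of C1qa, C1qb and C1qc together and under 100 UMIs of S100a8 and S100a9 together, both per 10000 UMIs. The numbers of macrophages were 2263 and 2788 in libraries 1 and 3, and 525 and 418 in libraries 2 and 4. Libraries 1 and 3 were compared with libraries 2 and 4 over all genes.

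SKOV3 is a human HER2-positive ovarian cancer line. The cells carried a lentiviral sgATG9A guide, which targets the lipid scramblase of autophagy, or sgGAL4 as a control, and were grown as tumors in NSG mice, which lack T, B and NK cells, are labelled as 6 to 8 weeks old and supply all of the immune cells. The labels list 2 sgGAL4 and 2 sgATG9A samples, alternating, and their protocol names trastuzumab, an antibody against HER2, or IgG at 10 mg/kg and a diet with 1200 ppm of the CSF1R inhibitor PLX5622, whereas the study's account of these samples gives trastuzumab alone. Each library pooled 3 tumors, from which live CD45+ cells were sorted. No file links a library number to a label. Libraries 1 and 3 would be sgGAL4, and 2 and 4 sgATG9A, only if the numbers follow the order of the labels, so all differences below are between numbered libraries, and none is credited to a genotype. With 2 libraries in each set, p-values measure the spread between these libraries only.

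Macrophages are phagocytes that settle in tissues or arise from blood monocytes. They produce complement C1q, depend on signals through the receptor Csf1r and engulf dead cells and antibody-coated targets, the latter through Fc receptors. In tumors they occur in states that are often described by resident, lipid-handling, interferon-induced, antigen-presenting or proliferating gene programmes. Neutrophils, short-lived granulocytes rich in the calprotectin subunits S100a8 and S100a9, enter the same tissue, and RNA released from them can be captured with a macrophage in the same droplet.

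Macrophages were 31.1% of kept barcodes in library 1 (exact 95% binomial interval 30.1 to 32.2%) and 49.1% in library 3 (47.8 to 50.4%). In libraries 2 and 4 they were 7.16% (6.58 to 7.77%) and 6.56% (5.96 to 7.19%). The sets did not overlap, but the share is fixed by the gate and the sort, and the intervals cover counting error only. Barcodes on the other side of both limits, with neutrophil genes, were 34% and 23.7% of the kept barcodes in libraries 1 and 3 and 57.1% and 50.4% in libraries 2 and 4. A further 349 barcodes were above both limits and 9098 below both, and neither group was used. Near the limits, 179 of the macrophages had C1q between 20 and 25 and 252 excluded barcodes between 15 and 20, and 74 macrophages had S100a8 and S100a9 between 80 and 100 while 44 excluded barcodes lay between 100 and 120.

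**Figure D1:**
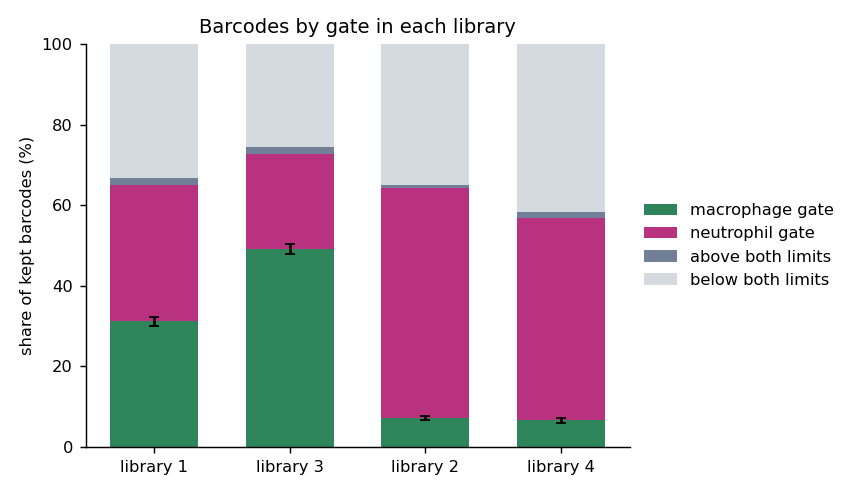
Share of kept barcodes (%) in each library by gate, stacked to 100%, with libraries 1 and 3 on the left and 2 and 4 on the right. Black bars are exact 95% binomial intervals of the macrophage share, which is 31.1% and 49.1% in libraries 1 and 3 and 7.16% and 6.56% in libraries 2 and 4.

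The gated barcodes carried macrophage RNA in all 4 libraries. The gate genes themselves are given as a description, since they chose the cells. C1qa was at 41.2, 47.8, 44.2 and 42.5 UMIs per 10000 in libraries 1, 3, 2 and 4, C1qb at 22.8, 25.1, 25.2 and 25, and C1qc at 20.2, 24.7, 20.7 and 19.7. S100a8 was at 1.23 and 0.894 in libraries 1 and 3 and at 2.19 and 3.61 in libraries 2 and 4, and S100a9 at 3.59 and 2.96 against 5.94 and 9.93. The 12 other macrophage-defining genes summed to 174 and 150 UMIs per 10000 in libraries 1 and 3 and to 178 and 157 in libraries 2 and 4, and none of them was absent. In neutrophil-gated barcodes, those on the other side of both limits, they summed to 85.0 and 75.9 against 99.8 and 74.4. Cd14 made up most of that, at 67.3 to 95.8, and the rest were lower there than in macrophages of every library. Apoe alone was at 78.4 to 108 in macrophages. The defining genes of lymphocytes and NK cells summed to at most 0.0377, with Gzma and Nkg7 at 0 in all macrophages, those of mast cells and basophils to at most 0.0415 with Mcpt8 at 0, and those of dendritic cells to at most 0.388. Fibroblast, endothelial and epithelial genes summed to 0.477 and 0.359 in libraries 1 and 3 and to 0.330 and 0.799 in libraries 2 and 4, and monocyte genes to 14.2 and 23.8 against 13.1 and 17.9. Macrophages had a median of 16198 and 14582.5 UMIs in libraries 1 and 3 and of 20184 and 17197 in libraries 2 and 4. Barcodes under 5000 UMIs made up 8.35% and 8.29% of them in libraries 1 and 3, but 16.8% and 28.7% in libraries 2 and 4. Among the macrophages, 44 barcodes had a sequence that also occurs in another library.

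Genes that define neutrophils were higher in the macrophages of libraries 2 and 4, the libraries with the larger neutrophil share. The 20 genes of that list summed to 7.41 and 5.37 UMIs per 10000 in libraries 1 and 3 and to 12.4 and 19.5 in libraries 2 and 4. To gauge how much of this could be RNA carried over from neutrophils, the level of each gene in macrophages was divided by its level in the neutrophil-gated barcodes of the same library. The median over the 20 genes was 2.74% and 2.17% in libraries 1 and 3 and 5.50% and 6.56% in libraries 2 and 4. The ratio differed widely among genes: the lowest was 0.173%, for the granule gene Camp in library 4, and the highest 30.7%, for the lactoferrin gene Ltf in library 3. It was 0.648%, 0.387%, 1.18% and 1.33% (libraries 1, 3, 2 and 4) for the neutrophil hormone gene Retnlg and 8.09%, 5.19%, 13.7% and 16.5% for the G-CSF receptor gene Csf3r. Free RNA, droplets with a cell of each type, and the macrophages' own transcription cannot be told apart by these ratios. Shallow barcodes had higher levels of the genes of the list, which leaves out the gate genes. In macrophages under 5000 UMIs of libraries 1 and 3 these genes summed to 29.2 and 17.5 UMIs per 10000, against 7.04 and 5.15 in the rest. In libraries 2 and 4 they summed to 27.1 and 47.5 against 12.1 and 17.9. For every gene, the median ratio times the neutrophil level, divided by the macrophage level, is called its neutrophil-derived share below. It exceeded 100% for 266 of the tested genes, so it is an upper gauge rather than a measured quantity for such genes. For all other genes too it depends on the ratio used. S100a8 and S100a9 together, which the gate limits in macrophages, had ratios of 0.878% and 0.749% in libraries 1 and 3. In libraries 2 and 4 their ratios were 1.40% and 1.98%. At these ratios, or at those of Retnlg, every share would be smaller, and fewer genes could reach a limit of 20%.

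UMIs were summed over the macrophages of each library and 15667 genes were tested. edgeR's quasi-likelihood test with Benjamini-Hochberg adjustment called 0 genes (0% of those tested, smallest adjusted p = 0.112). At an unadjusted p under 0.05 it had 707 genes higher in libraries 2 and 4 (4.51%) and 524 lower (3.34%). DESeq2, the other tool that was run, called 98 of 15363 genes higher (0.638%) and 46 lower (0.299%) at an adjusted p under 0.05. edgeR called 44 genes without library 1 and 35 without library 2. Without library 3 or without library 4 DESeq2 called 45 and 48 genes in all, and of those 144 genes 32 and 28 were called again. Libraries 2 and 4 were both above libraries 1 and 3 for 3007 genes (19.2%) and both below for 2854 (18.2%), which is the background for each count of separated genes below.

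The genes that DESeq2 called higher were mostly those with a large neutrophil-derived share, and the genes it called lower were not. Of the 98 higher genes, 84 (85.7%) had a share of at least 20% in at least 1 library. So did 1 of the 46 lower genes (2.17%) and 1568 of all 15667 (10.0%). The 84 include 11 of the 20 neutrophil-defining genes, from which the ratio was estimated, and the 2 gate genes S100a8 and S100a9. For these genes a large share follows from the estimate or the gate, and the count was not made without them. With the neutrophil RNA subtracted from each library at the median ratio, DESeq2 called 42 genes higher and 37 lower, of which 40 and 33 were among the 98 and 46. Subtracted at the lower ratio of Retnlg, it called 88 higher and 44 lower, with 86 and 43 in common, so the number of calls that remain depends on which ratio is used. With macrophages kept only under 20 UMIs of S100a8 and S100a9 per 10000, it called 49 higher and 28 lower, with 48 and 27 in common. The granulocyte gene Hdc (histidine decarboxylase) was at 0.703 and 0.551 UMIs per 10000 in libraries 1 and 3 and 1.46 and 2.71 in libraries 2 and 4, with a neutrophil-derived share of 55.1 to 81.9%. Stfa2l1, a stefin gene of neutrophils, was at 0.298 and 0.157 against 1.15 and 0.927, and G0s2, an inhibitor of lipolysis abundant in neutrophils, at 0.795 and 0.615 against 1.82 and 2.01. All 3 passed DESeq2's test (adjusted p = 7.43e-06, 5.35e-08 and 9.68e-08), and 14 of the 20 neutrophil-defining genes were higher in both libraries 2 and 4.

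**Figure D2:**
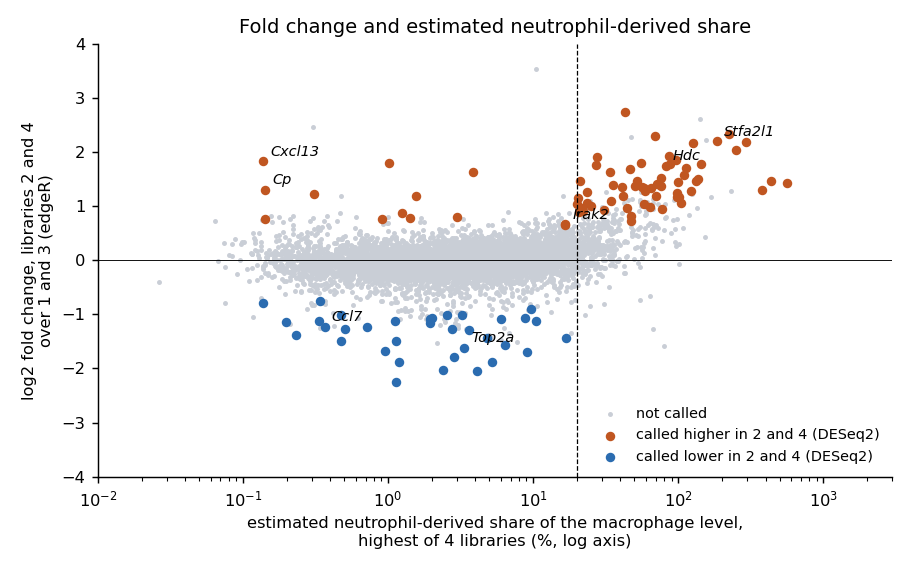
Each point is 1 of the 8584 genes with a share above 0 and a mean log2 CPM (UMI counts scaled to the library's total) of 3 or more, placed by its neutrophil-derived share of the macrophage level, the highest of 4 libraries (x axis, %, log scale), and by the log2 fold change of libraries 2 and 4 over 1 and 3 from edgeR (y axis; 1 gene lies outside it). The dashed line marks 20%: most of the 73 genes drawn as called higher by DESeq2 lie to its right, and the 35 drawn as called lower lie to its left.

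Cxcl13 encodes a chemokine that draws B cells and follicular helper T cells through the receptor Cxcr5. Of the genes called by DESeq2 that had a mean log2 CPM of 5 or more and a share under 20%, it had the highest fold change. It (ENSMUSG00000023078, chromosome 5 of GRCm39, 96104810 to 96108927, plus strand) was at 4.69 and 5.67 UMIs per 10000 in libraries 1 and 3 and at 15.5 and 20.6 in libraries 2 and 4. Libraries 2 and 4 were thus 3.56-fold higher, a log2 fold change of 1.83 (standard error 0.18). DESeq2 gave an adjusted p of 3.41e-15, and edgeR an adjusted p of 0.244 (unadjusted p = 3.11e-05). edgeR's adjusted p was 0.0387 without library 1, 0.0139 without library 2, 0.178 without library 3 and 0.177 without library 4. Its neutrophil-derived share was at most 0.137%. Over the 20 settings tried, the log2 fold change ran from 1.28 to 2.04 and edgeR's or DESeq2's test was passed in 5.

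A larger share of the macrophages held Cxcl13 RNA in libraries 2 and 4. After each macrophage was thinned to the number of UMIs at the lower limit, 11.6% (exact 95% interval 10.3 to 13%) and 12.3% (11.1 to 13.6%) had a Cxcl13 UMI in libraries 1 and 3, and 25.9% (22.2 to 29.9%) and 24.4% (20.4 to 28.8%) in libraries 2 and 4. Without thinning the shares were 21.2% and 20.1% against 37.9% and 37.1%. In neutrophil-gated barcodes, thinned in the same way, the share was 2.39% and 3.27% in libraries 1 and 3 and 3.39% and 2.74% in libraries 2 and 4. Cells that did hold it held more, with 6.55 and 7.16 UMIs on average in libraries 1 and 3 and 10.1 and 10.5 in libraries 2 and 4 after thinning. The RNA was concentrated in few cells: the tenth of macrophages with the most Cxcl13 had 97.3% and 97.0% of its UMIs in libraries 1 and 3 and 83.1% and 90.3% in libraries 2 and 4.

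Macrophages rich in Cxcl13 shared other features in all 4 libraries. Cells with at least 10 Cxcl13 UMIs, a limit chosen after seeing the data, numbered 191 and 267 in libraries 1 and 3 and 122 and 85 in libraries 2 and 4, and were set against the 1784, 2229, 326 and 263 cells with none. Of 1559 genes compared, at 1 UMI per 10000 or more in either group of every library, 278 were higher and 316 lower in the rich cells of all 4 libraries. Ccl8, a chemokine typical of resident macrophages, was at 12.4, 4.06, 2.93 and 4.68 UMIs per 10000 in the rich cells of libraries 1, 3, 2 and 4 and at 2.22, 0.782, 0.793 and 1.90 in the cells with none. The receptor phosphatase gene Ptprm was 2.42 to 5.22 times as high. The antigen-presenting molecules of MHC class II were lower in every library: H2-Ab1 was at 5.93, 2.94, 4.95 and 5.58 in the rich cells against 13.2, 6.25, 16.7 and 13.6, H2-Aa at ratios of 0.275 to 0.490, H2-Eb1 at 0.270 to 0.499 and the invariant chain gene Cd74 at 0.357 to 0.587. Fabp5, a fatty acid binding protein, was at ratios of 0.550 to 0.594, and the galectin gene Lgals3 at 0.365 to 0.615. The transcription factor gene St18 was 1.64 to 2.20 times as high. These values describe cells that were grouped by 1 of their own genes, and no test was made of them. Rich cells had medians of 16003 and 14389 UMIs in libraries 1 and 3 and of 22837.5 and 21578 in libraries 2 and 4, against 16337.5, 14654, 19897.5 and 16800 in the cells with none.

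**Figure D3:**
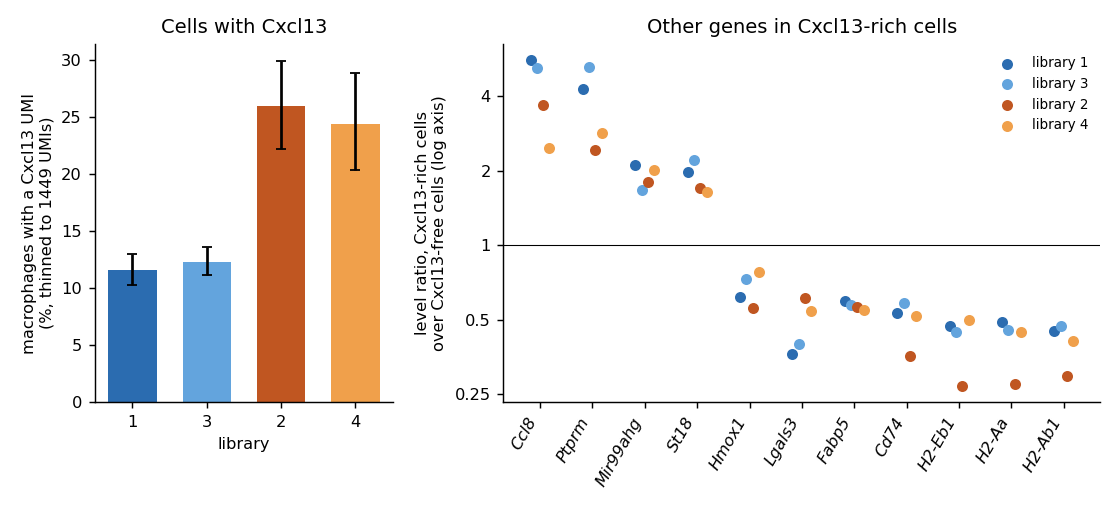
Left, share of macrophages with a Cxcl13 UMI (%) after thinning to the lower UMI limit, with exact 95% binomial intervals, from 11.6% in library 1 to 25.9% in library 2. Right, for 11 genes, the level in cells with at least 10 Cxcl13 UMIs over that in cells with none (log axis, 1 point per library): Ccl8 lies above 2.46 and the MHC class II genes below 0.5 in every library.

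By the same limits on level and share, DESeq2 called 7 further genes higher. Cp, which encodes the copper-binding ferroxidase ceruloplasmin (chromosome 3, 20011090 to 20063930), was at 0.356 and 0.266 UMIs per 10000 in libraries 1 and 3 and 0.792 and 0.719 in libraries 2 and 4 (log2 fold change 1.30, standard error 0.20, DESeq2's adjusted p = 3.96e-05). The voltage-gated proton channel gene Hvcn1 was at 0.263 and 0.191 against 0.541 and 0.473. Ass1, the argininosuccinate synthase of arginine synthesis, was at 0.412 and 0.400 against 0.683 and 0.673. For these genes the values within a set lay close together compared with the distance between sets. DESeq2's call, by which they were chosen, favours such genes, so this adds no support. Rnaset2a, a lysosomal ribonuclease, had a log2 fold change of 0.78, and Zmynd15, a zinc finger gene, of 0.77. Irak2, a kinase downstream of toll-like and IL-1 receptors, was at 3.23 and 3.06 against 4.57 and 5.21, and the transcription factor gene Klf10 at 0.494 and 0.499 against 0.732 and 0.817. The last 2 genes were also abundant in neutrophil-gated barcodes, and their neutrophil-derived share reached 16.6% in library 4.

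Among chemokines, Cxcl13 was on the opposite side from the 2 others that passed DESeq2's test. Ccl7, which attracts monocytes (chromosome 11, 81936532 to 81938351), was at 6.15 and 4.94 UMIs per 10000 in libraries 1 and 3 and 2.89 and 1.76 in libraries 2 and 4. Libraries 2 and 4 were 2.35-fold lower, with a log2 fold change of -1.23 (standard error 0.27, DESeq2's adjusted p = 0.00177). Cxcl1, a chemokine for neutrophils (chromosome 5, 91039094 to 91040974), was at 6.75 and 4.59 against 2.79 and 2.56, with a log2 fold change of -1.06 (standard error 0.22, DESeq2's adjusted p = 0.00329). The share of macrophages with a Ccl7 UMI after thinning was 27.5% and 24.7% in libraries 1 and 3 and 16.6% and 9.09% in libraries 2 and 4, against at most 3.89% of neutrophil-gated barcodes. That of Cxcl1 was 32.5% and 26.6% against 15.8% and 16.3%, and 7.87 to 15.9% of neutrophil-gated barcodes had it too. Those barcodes held Cxcl1 at 3.82 and 2.33 UMIs per 10000 in libraries 1 and 3 and at 4.48 and 3.22 in libraries 2 and 4, and its neutrophil-derived share in macrophages was at most 8.82%. Of 22 chemokine genes tested, 2 were higher and 4 lower in both libraries 2 and 4, and the median log2 fold change was -0.31, against 0.00 over all genes. Its direction turned with the libraries used: it was 0.22 without library 1, -0.69 without library 2, -0.61 without library 3 and -0.0059 without library 4.

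Genes of DNA replication and mitosis were lower as a group in libraries 2 and 4. All 28 tested genes of the cell cycle list had a log2 fold change below 0, with a median of -0.82. Libraries 2 and 4 were both lower for 26 of them against 18.2% of all genes. DESeq2's test was passed by 8. Top2a, the topoisomerase of dividing cells (chromosome 11, 98883769 to 98915062), was at 0.419 and 0.689 UMIs per 10000 in libraries 1 and 3 and 0.172 and 0.180 in libraries 2 and 4 (log2 fold change -1.62, standard error 0.23, DESeq2's adjusted p = 4.42e-06). The linker histone gene H1f5 was at 0.410 and 0.781 against 0.166 and 0.112, and Ube2c, which serves the anaphase-promoting complex, at 0.390 and 0.719 against 0.197 and 0.245. The replication factor gene Pclaf had a log2 fold change of -1.08, the mitotic kinase gene Aurkb of -1.43 and the ribonucleotide reductase gene Rrm2 of -1.58. In each of these genes with levels given, library 3 was the highest and libraries 2 and 4 lay below library 1. Leaving out a library moved the median of the list between -1.09 and -0.57.

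The share of cells with such RNA overlapped between the sets, and the difference in level was in the deepest barcodes. A UMI of Mki67, Top2a, Birc5 or Cdk1 was found, after thinning, in 14.7% and 17.7% of macrophages of libraries 1 and 3 and in 16.0% and 12.2% of libraries 2 and 4, which overlap. Macrophages over 20000 UMIs made up 31.2% and 23.4% of the cells in libraries 1 and 3 and 51.0% and 39.7% in libraries 2 and 4. In them the 28 genes summed to 28.1 and 40.7 UMIs per 10000 in libraries 1 and 3 and to 19.7 and 17.3 in libraries 2 and 4, whereas in the other macrophages they summed to 18.5 and 22.6 against 21 and 19.7. Without barcodes over 20000 UMIs the median log2 fold change of the list was -0.06 and 7 of 28 genes were above 0. After thinning it was -0.26.

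Genes of resident-like macrophages tended to lie lower in libraries 2 and 4, though few passed a test and the extent differed between libraries. Of 18 tested genes of that list, 6 were lower in both libraries and 0 higher, with a median log2 fold change of -0.47. The growth arrest gene Gas6, a ligand of the receptor Mertk that bridges it to dead cells, was at 0.861 and 0.605 UMIs per 10000 in libraries 1 and 3 and 0.378 and 0.343 in libraries 2 and 4 (log2 fold change -1.0, standard error 0.22, DESeq2's adjusted p = 0.0155). Mrc1, the mannose receptor, was at 3.25 and 2.18 against 1.14 and 1.74 (log2 fold change -0.90, DESeq2's adjusted p = 0.135), and was seen in 21.6% and 17.6% of thinned macrophages against 10.9% and 7.89%. The carbonyl reductase gene Cbr2 was at 0.257 and 0.171 against 0.0598 and 0.127 (DESeq2's adjusted p = 0.155). The direction rested on single libraries: without library 1 the median of the list was 0.02, without library 2 it was -0.02, and without libraries 3 or 4 it was -0.78 and -1.12. Folr2 had 0.126 UMIs per 10000 in library 2 and 0.367 to 0.421 in the others, so library 2 alone was low. Of the M2-like list, 2 of 13 genes were higher and 3 lower in both libraries, among them Arg1, with 0.787 and 0.934 against 0.200 and 0.607.

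Other genes called lower by DESeq2 included Psd3, which encodes an exchange factor for the small GTPase Arf6, at 0.822 and 1.5 UMIs per 10000 in libraries 1 and 3 and 0.389 and 0.485 in libraries 2 and 4, and the calcium pump gene Atp2b4, at 0.743 and 1.03 against 0.349 and 0.394. Tnfsf8, the ligand of CD30, was at 0.667 and 0.521 against 0.264 in each of libraries 2 and 4. The long non-coding RNA Eldr was at 0.734 and 0.794 against 0.317 and 0.376, and the nuclear pore gene Nup107 at 1.44 and 1.1 against 0.502 and 0.749. Of the matrix and protease genes, Sparc, a collagen-binding glycoprotein, was at 0.362 and 0.478 against 0.234 and 0.171 (log2 fold change -1.01) and the macrophage elastase gene Mmp12 at 0.598 and 0.345 against 0.197 and 0.0891 (log2 fold change -1.67), both past DESeq2's test. Mmp9, a gelatinase that neutrophils store, was higher in libraries 2 and 4, at 0.173 and 0.0780 against 0.356 and 0.595, with a neutrophil-derived share of up to 86.2%.

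**Figure D4:**
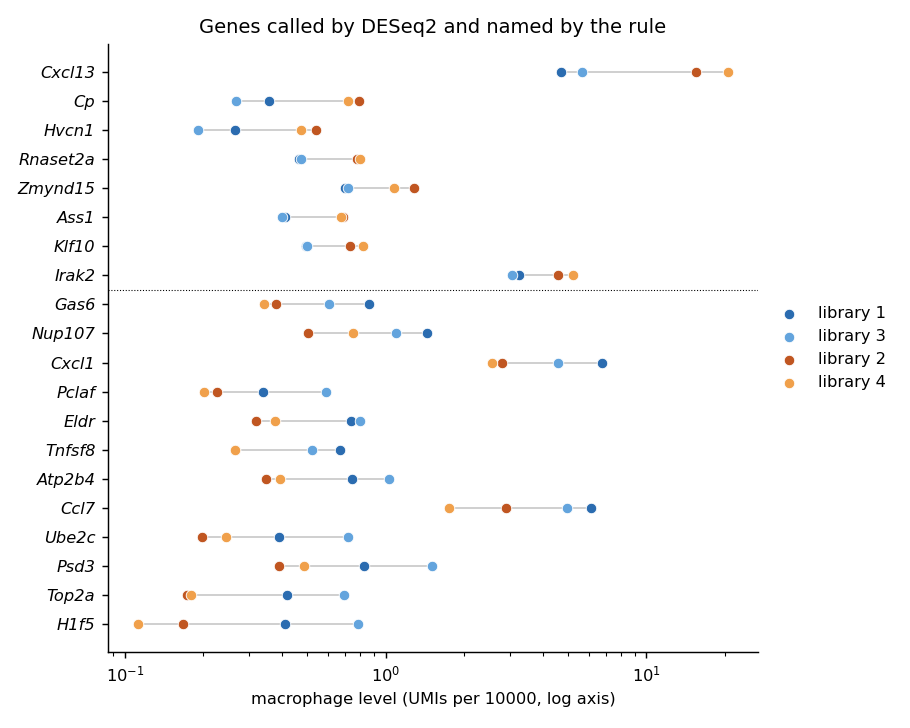
Macrophage level (UMIs per 10000, log axis) of 20 genes that DESeq2 called within those limits on level and share, 1 point per library. Of the genes called lower, no more than 12 were drawn. Above the dotted line are the 8 genes higher in libraries 2 and 4, led by Cxcl13, and below it the 12 with the lowest fold changes, down to H1f5; in each row the points of libraries 1 and 3 are separate from those of 2 and 4.

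Within the macrophage gate, few of the study's markers of macrophage states separated the sets. The study used these markers to name 2 clusters of its Cd14-expressing cells. Between sgGAL4 and sgATG9A tumors it compared the sizes of the clusters and the combined expression of each group of markers. It also stained tumors for the CX3CR1 and iNOS proteins. Its cytotoxic cluster was marked by S100a8 among others, and the gate leaves out barcodes rich in S100a8 and S100a9. The values below therefore cover other cells and another measure, and do not test those comparisons. Of its 5 regulatory markers, the fractalkine receptor gene Cx3cr1 was at 5.07 and 6.36 UMIs per 10000 in libraries 1 and 3 and 6.30 and 5.21 in libraries 2 and 4. The lipid-sensing receptor gene Trem2 was at 5.88 and 6.66 against 6.03 and 5.39, Il10 at 0.842 and 0.501 against 0.472 and 0.710, and Tgfb1 at 1.61 and 1.40 against 1.87 and 1.76. Only Mrc1, above, was lower in both libraries 2 and 4, and only Tgfb1 higher. Of the cytotoxic markers, Nos2 (inducible nitric oxide synthase) was at 0.0551, 0.0545, 0.0507 and 0.0981 in libraries 1, 3, 2 and 4. Ptgs2 (cyclooxygenase-2) was at 1.53, 0.880, 1.53 and 1.86, and Lcn2 (lipocalin-2) at 0.102, 0.105, 0.0902 and 0.415. Their neutrophil-derived shares reached 65.2%, 48.2% and 385%, and S100a8, also on that list, is a gate gene. None of these 8 genes passed edgeR's or DESeq2's test. Csf1r, the receptor that PLX5622 inhibits, was at 4.56 and 4.71 in libraries 1 and 3 and 5.33 and 5.21 in libraries 2 and 4 (log2 fold change 0.21, standard error 0.12, edgeR's unadjusted p = 0.131).

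Several genes of antibody-dependent uptake and inflammatory signalling were higher in libraries 2 and 4, and those past DESeq2's test had a neutrophil-derived share of over 20%. Of 14 Fc receptors and their signalling genes, 5 were higher and 1 lower in both libraries, and 1 passed DESeq2's test. That gene, the Src-family kinase gene Fgr, was at 0.487 and 0.565 UMIs per 10000 in libraries 1 and 3 and 1.04 and 1.43 in libraries 2 and 4, with a neutrophil-derived share of up to 23.6%. Inpp5d, the phosphatase SHIP1, was at 3.92 and 5.19 against 5.85 and 6.28 and passed neither test. Of 25 targets and regulators of NF-kB, 12 were higher in both libraries 2 and 4 and 0 lower, against 19.2% and 18.2% of all genes, and the median log2 fold change was 0.26, or 0.16 with neutrophil RNA subtracted. It was 0.51 without library 1 and 0.12 without library 3. The adhesion molecule gene Icam1 was at 1.53 and 1.18 against 2.65 and 2.30, and the adaptor gene Traf1 at 0.414 and 0.226 against 0.834 and 0.788. Both passed DESeq2's test, with shares of up to 20.8% and 40.7%. The survival gene Birc3 was at 2.02 and 1.92 against 2.70 and 3.38 and did not. Among 20 inflammatory cytokine genes, Il23a, a subunit of IL-23, was at 0.204 and 0.125 against 0.573 and 0.470, and Csf1, the ligand of Csf1r, at 0.395 and 0.265 against 0.664 and 1.06. Both passed DESeq2's test, with neutrophil-derived shares of up to 46.3% and 35.7%, and 4 genes of the list were higher and 2 lower in both libraries.

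In further receptor lists, the genes that DESeq2 called higher in libraries 2 and 4 again had shares of over 20%. Of 20 growth factor and cytokine receptor genes, 12 were higher and 1 lower in both libraries 2 and 4, and the 2 past DESeq2's test, the decoy receptor gene Il1r2 and Csf3r, had shares of up to 55.2% and 41.8%. Only 3 of the 20 had a share of 20% or more, and 17 had a log2 fold change above 0, against 49.7% of all genes. The median log2 fold change was 0.22, or 0.19 with neutrophil RNA subtracted. It was 0.24, 0.18, 0.17 and 0.25 without libraries 1, 2, 3 and 4. Of 25 pattern recognition receptor genes, 9 were higher and 2 lower, and Clec4e, which encodes the receptor Mincle, passed DESeq2's test with a share of up to 57.7%. Of 17 complement genes tested, 4 were higher and 3 lower, and C3, the central component, was at 0.237 and 0.163 UMIs per 10000 in libraries 1 and 3 and 0.421 and 0.675 in libraries 2 and 4, with a share of up to 20.9%. The scavenger receptor gene Marco was at 0.0324, 0.00191 and 0.0487 in libraries 1, 3 and 2 but at 1.58 in library 4, and no test was passed. Of 19 phagocytic and scavenger receptor genes, 4 were higher and 5 lower. The 1 past DESeq2's test was Gas6, above, which was lower.

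Interferon-induced and antigen-presenting genes varied between libraries along another line. The interferon-stimulated genes summed to 70.0 and 43.6 UMIs per 10000 in libraries 1 and 3 and to 64.6 and 39.6 in libraries 2 and 4. Libraries 1 and 2 were thus high and 3 and 4 low: of 38 tested genes, 33 were higher in both 1 and 2 than in both 3 and 4 (86.8%, against 17.7% of all genes), while 2 were higher and 3 lower in both libraries 2 and 4 than in 1 and 3. Ifi209 and Ifi205, of the family that senses DNA, were at 0.177 and 0.124 against 0.0933 and 0.0634, and at 0.0353 and 0.0170 against 0.00912 and 0.00604, and neither passed a test. Of 25 interferon-gamma response genes, 16 were higher in both libraries 1 and 2 than in 3 and 4, and 3 were higher and 2 lower in libraries 2 and 4. MHC class II presentation genes summed to 121 and 80.9 in libraries 1 and 3 and to 134 and 111 in libraries 2 and 4, so library 3 was the lowest. Of 13 genes, 2 were higher in both libraries 2 and 4: Ciita, the master regulator of the class, at 0.181 and 0.117 in libraries 1 and 3 against 0.279 and 0.207, and the costimulatory gene Cd80, the only 1 past DESeq2's test, with a neutrophil-derived share of up to 23.7%. Of 14 MHC class I genes, 6 were higher and 0 lower, and H2-D1 was at 10.3 and 10.1 against 12.4 and 12 with no test passed.

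Metabolic and stress lists had medians within 0.15 of 0. Of the nuclear genes of oxidative phosphorylation, 21 of 41 were higher and 1 lower in both libraries 2 and 4, with a median log2 fold change of 0.15. It was 0.06 without library 4, 0.23 without library 2 and 0.34 after thinning, where 13 genes had an unadjusted p under 0.05 in edgeR, and 17 of the 41 were lower in both libraries 1 and 2 than in 3 and 4. The complex I gene Ndufa1 was at 0.732 and 0.757 UMIs per 10000 in libraries 1 and 3 against 1.03 and 1.12 in libraries 2 and 4, and the cytochrome oxidase genes Cox6c and Cox7c at 2.65 and 2.78 against 3.07 and 3.42, and at 2.70 and 3.06 against 3.24 and 3.63. None of the 41 passed either test, and 1 had an unadjusted p under 0.05 in edgeR. Mitochondrially encoded genes had 3 of 13 higher and 1 lower. Genes of the integrated stress and unfolded protein response had 3 of 21 higher and 6 lower, with the chaperone gene Hspa5 at 9.98 and 12 against 8.01 and 8.41 and Manf at 2.11 and 3.15 against 1.62 and 1.94. Immediate early and heat shock genes had 8 of 26 higher and 3 lower, and Hsph1 was at 0.253 and 0.270 against 0.144 and 0.157. The lists of lysosomal genes (3 of 32 higher, 3 lower), sterol synthesis (3 of 23, 1), cholesterol export (4 of 14, 0), iron and heme (5 of 15, 0), NRF2 targets (3 of 20, 2) and hypoxia and glycolysis (4 of 30, 7) had medians between -0.02 and 0.10. Lipid-associated macrophage genes had 3 of 18 higher and 2 lower, with the tetraspanin gene Cd9 at 2.47 and 2.90 against 3.24 and 3.60 and the cholesterol exporter gene Abcg1 at 0.33 and 0.243 against 0.345 and 0.581. Of the macrophage-defining list, 2 of 12 were higher and 2 lower, among them Aif1 at 5.77 and 5.22 against 6.59 and 7.41, Maf at 1.70 and 1.41 against 1.14 and 1.22, and the legumain gene Lgmn at 15.3 and 16.3 against 13.5 and 13. None of these 3 passed a test. Of the monocyte list, 2 of 14 were higher and 1 lower, with F13a1 at 2.26 and 2.28 against 0.488 and 1.67. Protease and matrix genes had 7 of 19 higher and 3 lower.

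**Figure D5:**
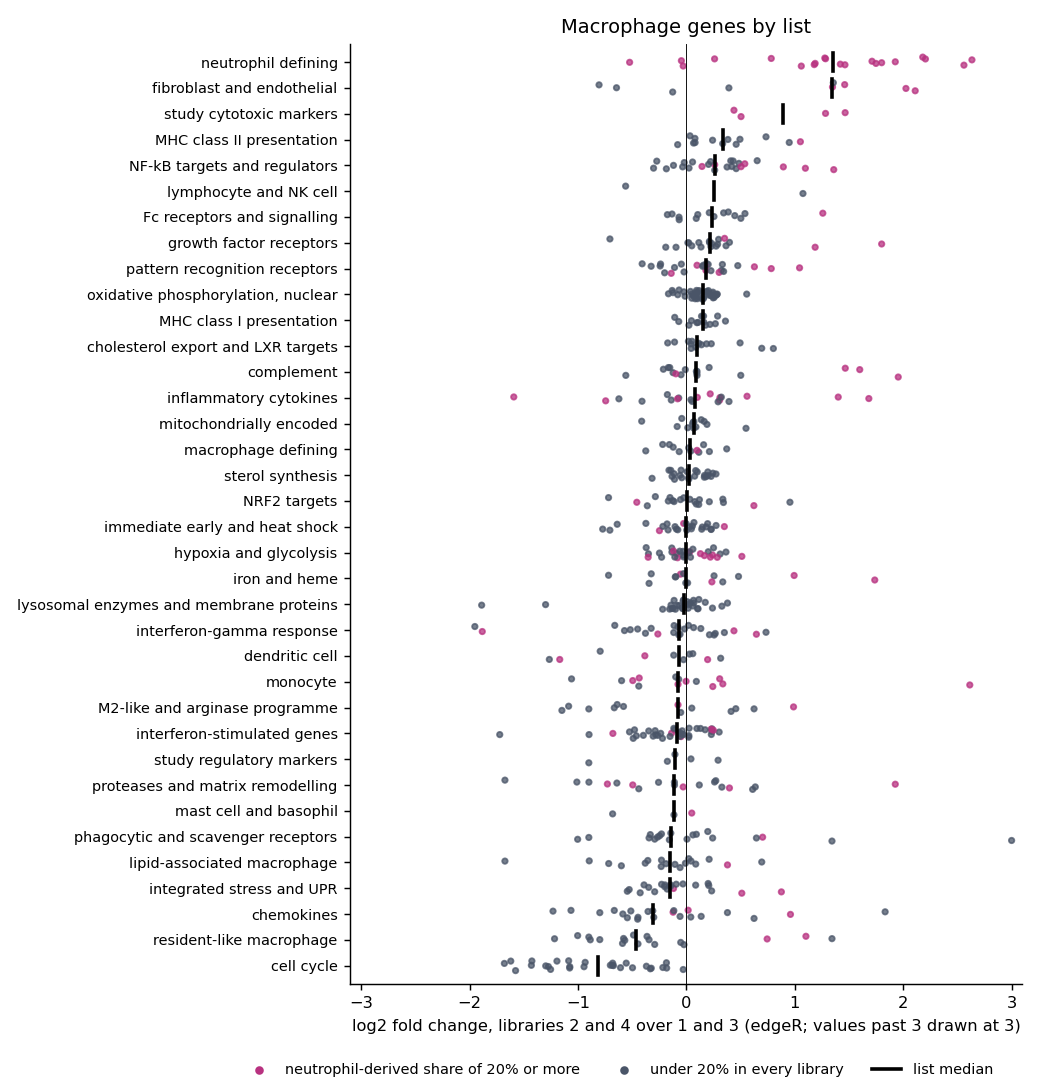
Log2 fold change of libraries 2 and 4 over 1 and 3 (edgeR; x axis, values past 3 drawn at 3) for each tested gene of 36 lists, ordered by their medians (black bars), with genes whose neutrophil-derived share reached 20% in pink. The cell cycle list has the lowest median, -0.82, and the neutrophil list the highest, 1.35, with all 20 of its genes in pink.

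To see where macrophages differed from the neutrophils of the same libraries, the comparison was repeated with the 2 classes in 1 edgeR fit with library as a block. In that test of the difference between classes, 82 of 15309 genes were called as changing more towards libraries 2 and 4 in macrophages than in neutrophil-gated barcodes (0.536%), and 4 as changing less (0.0261%). The 82 were mostly macrophage genes: 76 were higher in macrophages than in neutrophil-gated barcodes of all 4 libraries, and in 76 the level in neutrophil-gated barcodes was lower in both libraries 2 and 4. Their median ratio of libraries 2 and 4 over 1 and 3 was 0.934 in macrophages and 0.209 in neutrophil-gated barcodes. The dead-cell receptor gene Mertk was at 1.05 and 1.52 UMIs per 10000 in macrophages of libraries 1 and 3 and 1.13 in each of 2 and 4, but at 0.140 and 0.108 against 0.0138 and 0.00996 in neutrophil-gated barcodes (difference of log2 fold changes 3.15, standard error 0.42, edgeR's adjusted p = 0.0183). The toll-like receptor homologue gene Cd180 was at 1.33 and 1.1 against 1.16 and 0.882 in macrophages and at 0.104 and 0.0971 against 0.0129 and 0.0105 in neutrophil-gated barcodes. The 86 genes were 21 without library 1, 477 without library 2 and 198 without library 4. Once macrophage RNA estimated in the same way was subtracted from the neutrophil-gated sums, 0 genes were called by edgeR (1473 at an unadjusted p under 0.05), and 3 when neutrophil RNA was subtracted from the macrophages. The ratio of macrophage RNA was the median over the 12 macrophage-defining genes, 11.3% and 7.86% in libraries 1 and 3. In libraries 2 and 4 it was 2.95% and 3.86%. The 12 include Cd14, which was higher in neutrophil-gated barcodes, at 487 to 662%. The gate gene C1qa had ratios of 2.29% and 2.39% against 1.19% and 1.03%, and no lower ratio was subtracted.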

How the data were processed

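CD45+ cells of SKOV3 tumors were profiled with a droplet 3′ kit. The authors deposited 1 matrix of UMI counts, made with Cell Ranger 8.0.0 on mm39 per the labels, whose aggregation step may have subsampled reads. Human tumor RNA was aligned to mouse genes only. The matrix holds 262605430 UMIs of 33696 genes, of which macrophages hold 6622739 to 41801955 per library, and these depths and 2 libraries per set limit the precision. No per-sample column was left out. Bulk libraries of the series were not used here.

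The members, gene lists and tests were chosen with earlier results of these data known. Doublets were not called, and barcodes above both gate limits were left out. Sums of UMIs per library passed filterByExpr, were scaled by TMM and were tested by edgeR's quasi-likelihood method (version 4.0.16 under R 4.3.3) without covariates. Tests were two-sided. Genes were called where the p adjusted after Benjamini and Hochberg was under 0.05. DESeq2 1.42.0 was the alternative tool. Gating used Python 3.11.15 and scipy 1.17.1. Tested on simulated data of this comparison, with 15302 genes tested, the fit found 61 of 100 genes that were given a 2-fold change, 99 of 100 given a 4-fold change, and 7 that were given none. The changed genes of that simulation were drawn only from genes with more UMIs than the filter asks. Every gene was simulated at the spread usual for its level. The numbers found therefore do not hold for scarcer genes or for genes that vary more. Intervals are exact binomial (Clopper-Pearson) and cover counting error only. Gene positions are those of GENCODE M39, which held 33185 of the 33696 gene identifiers.

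Genes were named by a rule: the 12 called genes with the highest and lowest fold change among those with a neutrophil-derived share under 20% and a mean log2 CPM of 5 or more, per list up to 3 genes of smallest p that lay apart, the study's markers, the gate genes, and up to 6 called genes with the largest difference between classes in each direction. edgeR called none, so the first part was applied to DESeq2's calls, a choice made after seeing the data. Some genes that met the rule are not reported here. Genes of the Cxcl13-rich cells, Folr2, Camp, Ltf and Retnlg were named after their values were seen. Alternatives were RLE size factors, no filter or 50 UMIs, leaving out each library, library pairs as a block, stricter gates, subtraction of neutrophil RNA, thinning, and leaving out deep, monocyte-like, cycling or shared barcodes. Leaving out barcodes under 5000 UMIs, subtraction at the Retnlg ratio or of macrophage RNA, and the DESeq2 versions were added after seeing the data.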

Additional observations from a re-analysis of the deposited data

Results flagged for a closer look

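The difference between macrophages and neutrophil-gated barcodes was itself tested, and 86 genes passed edgeR's adjusted p under 0.05. A positive value means that libraries 2 and 4 over 1 and 3 were higher in macrophages than in neutrophil-gated barcodes. On the log2 scale it was 3.15 for Mertk, 3.13 for the transcription factor gene St18, 3.00 for Arg1, 2.75 for Cd180 and 2.65 for the olfactory receptor gene Or5v1b. In neutrophil-gated barcodes these genes were at 0.0281 to 0.523 UMIs per 10000 in libraries 1 and 3 and at 0.00117 to 0.0363 in libraries 2 and 4. It was -3.12 for the chitinase-like gene Chil3, -2.78 for the growth factor gene Areg and -1.56 for Tnfsf9, the ligand of 4-1BB. Chil3 was at 5.39 UMIs per 10000 in neutrophil-gated barcodes of library 4 and at 0.0664 to 0.209 in the other libraries, so 1 library sets its value. Of the 82 genes with a positive value, the macrophage level was higher in both libraries 2 and 4 for 14 and lower for 21, Arg1 among the latter. The share of macrophages moved with these values. With estimated macrophage RNA subtracted from the neutrophil-gated sums, as above, edgeR called 0 genes. The cause was not tested.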

How the results depend on the processing

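In the comparison of macrophage genes, edgeR called 615 genes without a filter on low counts (25131 genes tested), 144 were called by DESeq2, and 1 (Cxcl13) was called after thinning. Leaving out 1 library gave 0 to 44 genes (44 without library 1, 35 without library 2), the set with 1 library being assumed to vary like the other, and each of the other alternatives gave 0. With libraries 1 and 2 and libraries 3 and 4 as pairs (replicate block) edgeR called 0 genes and DESeq2 114. The labels number replicates 1 and 2 in each group, but no file ties these to libraries, and with 2 pairs the pairing was not established: the replicate differences of the sets correlated at 0.0552 over all genes and at 0.234 over the 4520 genes at a log2 CPM of 5 or more. DESeq2's 144 genes became 77 with S100a8 and S100a9 under 20 per 10000, 79 with neutrophil RNA subtracted (132 at the Retnlg ratio, 129 of them in common), 94 without cycling-gene barcodes, and 45 and 48 without libraries 3 and 4 (45 to 140 when a library was left out). The 86 genes that differed between classes became 142 with RLE size factors, 21 without library 1, 477 without library 2 and 198 without library 4 (21 to 477), 3 with neutrophil RNA subtracted and 0 with macrophage RNA subtracted.

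The estimate of neutrophil RNA in macrophages was 3.91%, 2.58% and 7.49% in libraries 1, 3 and 4 as a ratio of summed levels, and 1.94%, 3.51%, 1.31% and 3.19% in libraries 1 to 4 with S100a8 and S100a9 under 20 per 10000. The macrophage share was 27.1%, 6.35%, 43.8% and 5.27% with C1q at least 40 per 10000, and 28.9%, 6.42%, 46.2% and 5.13% with the stricter limit on S100a8 and S100a9. The sets kept their order in each case.

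Of 1418 values of 75 named genes, 1280 kept their direction and their side of the threshold, 111 passed a threshold that edgeR had not passed and 27, of 10 genes, changed sign. Without cycling-gene barcodes, which were chosen by genes of the cell cycle list, H1f5 was at 0.91, Ube2c at 0.54, Il10 at 0.060 and Chil3 at 0.20. Without barcodes over 20000 UMIs Rrm2 was at 0.079, Cx3cr1 at -0.11, Chil3 at 0.88 and Or5v1b at -0.032. Without a filter Cx3cr1 was at -0.00019, and after thinning at -0.12. With S100a8 and S100a9 under 20, Nos2 was at -0.0013 and Chil3 at 0.030. With neutrophil RNA subtracted Nos2 was at -0.48, and Lcn2 at -0.032 with the Retnlg ratio. Or5v1b was at -0.054 with the replicate block and at -0.053 without monocyte-gene barcodes. Leaving out a library gave -0.11 to 0.17 for Cx3cr1, -0.55 to 0.30 for Il10, -0.084 to 0.85 for Nos2, -0.16 to 2.02 for Lcn2, -2.65 to 0.85 for Chil3, -0.36 to 0.072 for Mertk and -0.75 to 0.59 for Or5v1b. The cause was not tested.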
